A study of Mus musculus with 6 samples.

Results

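The genes described here are 10 nuclear genes that control the number, shape and transcription of mitochondria, in 6 RNA-seq libraries of mouse Th17 cultures. They were listed by name, for their known roles and with earlier results of these data in view: Tfam, Tfb2m and Polrmt (transcription of mitochondrial DNA), Nrf1 and Ppargc1b (regulators of biogenesis), Opa1, Mfn1 and Mfn2 (fusion), and Dnm1l and Fis1 (fission). A table row carrying exactly that symbol was found for 9 of the 10, among 10041 rows in all, and all 9 passed the filter on low values. Ppargc1b was not analysed here.

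In the study, 3 cultures were grown with oligomycin at 2.5 ng/ml, a blocker of the mitochondrial ATP synthase, and 3 with its vehicle DMSO. Each number in the sample titles was carried by a DMSO and an oligomycin sample, a possible pairing that the main fit did not use. Both groups were made from naive CD4 T cells, activated for 48 h on plates carrying anti-CD3e at 10 µg/ml, while anti-CD28 was added at 1 µg/ml. Both also received cytokines that drive cells towards the IL-17-secreting Th17 fate: TGF-β1 at 2.5 ng/ml, IL-6 at 20 ng/ml and IL-23 at 10 ng/ml. The labels give no strain, genotype or age. The comparison asks how gene expression in differentiating Th17 cells depends on oxidative phosphorylation.

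Mitochondria carry their own small genome, which is read by a dedicated RNA polymerase (POLRMT) together with the DNA-packaging factor TFAM and the initiation factor TFB2M, all encoded in the nucleus. The transcription factor NRF1 and coactivators of the PGC-1 family switch on many nuclear genes for mitochondrial proteins, the factors of mitochondrial DNA transcription among them. Mitochondria also fuse and divide: mitofusins 1 and 2 join outer membranes, OPA1 joins inner membranes, and the dynamin-related GTPase DRP1 (gene Dnm1l) constricts and cuts the organelle. In T cells the balance between fused and fragmented mitochondria is known to change with activation and differentiation.

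Levels are given as FPKM (fragments counted per unit of transcript length and of library size), so each level depends on what else the library holds. Changes are differences of log2(FPKM + 1), oligomycin minus DMSO, tested with limma, and a gene is called where its adjusted p over all 9986 tested rows lies under 0.05. The pseudocount of 1 understates the change of low genes. Replicate numbers are those of the table's columns. The labels do not say whether the cultures came from separate animals, so p-values measure only the spread between these samples. In bulk RNA, fewer cells of a type and less RNA per cell cannot be told apart.

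The upstream sequence of the called gene and of 4 others is shown for orientation, since several of these genes are textbook targets of NRF1 or of the ETS factor GABP. The sequences are from RefSeq (GRCm38.p6), 5′ to 3′ on the gene's strand, end at or shortly before a RefSeq start and leave out bases inside a GENCODE M21 exon. Capitals mark CCGGAAG (the core bound by ETS factors such as GABP) or CGCATGCGC (the NRF1 core), searched on both strands. Stretches of Tfb2m, Nrf1 and Dnm1l, and of other windows of Mfn2 and Fis1, that met these rules held no capitals and are not shown. The share of marked sequences below is thus not that of the list.

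Mfn1, chr3:32529332-32529464, plus strand: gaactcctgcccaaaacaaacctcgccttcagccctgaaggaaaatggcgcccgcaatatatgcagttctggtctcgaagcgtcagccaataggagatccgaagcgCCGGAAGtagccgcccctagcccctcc
Mfn2, chr4:147904910-147905059, minus strand: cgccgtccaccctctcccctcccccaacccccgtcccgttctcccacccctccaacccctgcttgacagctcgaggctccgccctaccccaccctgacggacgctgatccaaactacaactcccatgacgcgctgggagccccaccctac
Opa1, chr16:29579184-29579333, plus strand: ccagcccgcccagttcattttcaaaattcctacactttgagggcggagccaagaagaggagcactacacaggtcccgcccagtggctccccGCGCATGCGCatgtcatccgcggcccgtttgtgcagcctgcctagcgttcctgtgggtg
Polrmt, chr10:79746582-79746731, minus strand: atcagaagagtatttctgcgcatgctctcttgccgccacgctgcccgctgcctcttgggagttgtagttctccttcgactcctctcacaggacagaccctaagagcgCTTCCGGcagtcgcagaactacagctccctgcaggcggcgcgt
Fis1, chr5:136953125-136953274, plus strand: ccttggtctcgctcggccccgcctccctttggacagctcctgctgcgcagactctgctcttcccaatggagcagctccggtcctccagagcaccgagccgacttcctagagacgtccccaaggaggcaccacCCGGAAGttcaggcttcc

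Mfn2 has 3 RefSeq windows, and the stretch shown lies before the start farthest upstream, outside the GENCODE M21 gene and the table's locus. The capitals in Opa1 hold 2 overlapping matches, 1 on each strand, and those in Polrmt are the ETS letters read on the other strand. The 9 genes had 14 promoter windows of 300 bases in the table, some genes having several. CCGGAAG was in 6 of the 14 windows, against 19.8% of the 9087 windows of genes in the expression table and 8.86% of all 32851 windows. Counted by gene, it was found for 5 of 9 (Tfam, Polrmt, Mfn1, Dnm1l and Fis1), against 23.1% of 7125 expression-table genes with a window. CGCATGCGC was in 2 windows, those of Tfb2m and Opa1, against 4.17% of the expression-table windows and 1.75% of all windows, and 4.83% of the expression-table genes held it. With any base at the fourth place (CGCNTGCGC) it was in 3 windows, that of Polrmt being added, against 14.7% of the expression-table windows and 6.25% of all windows. CACGTG, the E-box bound by MYC among others, was in 0 of the 14 windows, against 10.6% of the expression-table windows and 7.15% of all windows. Mfn1, the only gene of the list that was called, shared the ETS letters with Fis1, Tfam, Polrmt and Dnm1l, which were not called. A match describes these letters in these windows and says nothing of a factor's binding.

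One of the 9 genes changed with oligomycin: Mfn1, the gene of mitofusin 1, was lower, and the genes of the other mitofusin, of mitochondrial DNA transcription and of fission were not called. The list thus had 1 gene lower, 0 higher and 8 not called. Of all tested rows 16.1% were called lower, 14% higher and 30.2% either way, so 1 of 9 is no more than the background. These shares stand for 1403 rows called higher and 1610 called lower, a split that turned to 1915 higher and 1278 lower when each library was scaled to its sum without 185 small RNA rows, which took 80.2 to 82.2% of the FPKM sum with oligomycin and 71.1 to 78% with DMSO. Mfn1 was still lower under that scaling (log2 change -0.45, limma adjusted p = 0.0195). At an unadjusted p under 0.05 there were 2 genes, Mfn1 and Dnm1l. The median log2 change of the 9 genes was -0.16, against -0.00 over all tested rows, and single genes ran from -0.55 to 0.24. The 3 libraries of one group lay wholly apart from those of the other for 4 of the 9 genes, Mfn1, Dnm1l and Opa1 lower and Polrmt higher, against 47.3% of all tested rows.

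**Figure D1:**
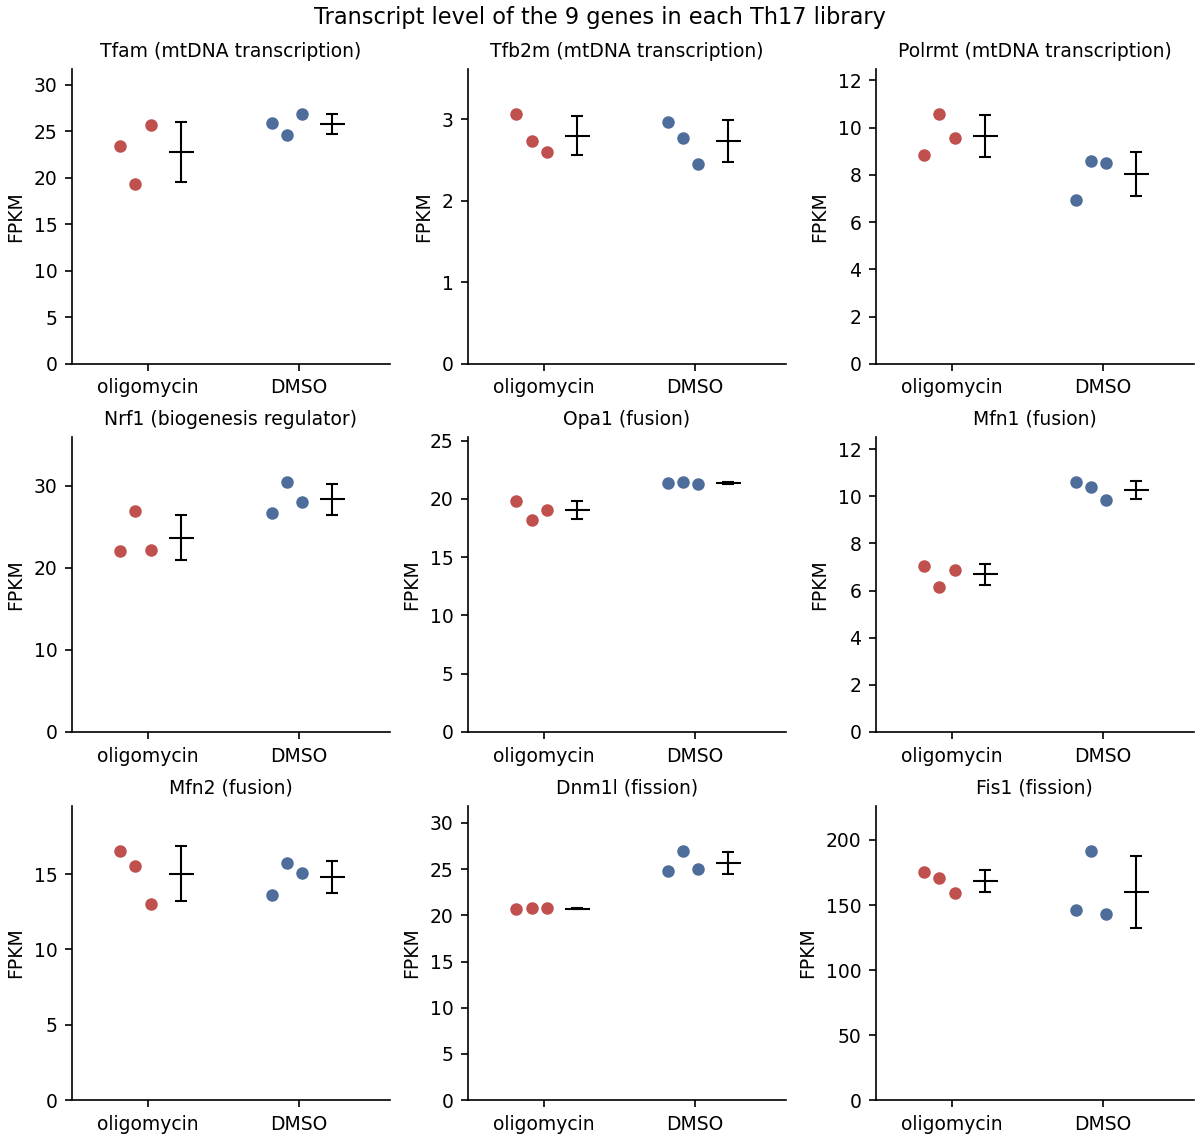
FPKM of the 9 genes (vertical axes from 0, each gene on its own scale) in the 3 oligomycin libraries (red) and the 3 DMSO libraries (blue); points are libraries, in column order, and the black mark and bar are the mean ± SD. The groups stand well apart for Mfn1, at 6.16 to 7.03 FPKM with oligomycin and 9.82 to 10.6 FPKM with DMSO, and by less for Dnm1l, Opa1 and Polrmt.

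Of the fusion genes, only Mfn1 was called, and their changes were not tested against each other. Mfn1 (XLOC_012595, chromosome 3, 32529482 to 32579225, GRCm38) had 7.03, 6.16 and 6.86 FPKM in the oligomycin libraries, against 10.6, 10.4 and 9.82 FPKM in the DMSO libraries. The highest oligomycin library lay well under the lowest DMSO library. The means were 6.68 ± 0.463 FPKM with oligomycin and 10.3 ± 0.396 FPKM with DMSO (SD, n = 3 each), a mean 34.9% lower with oligomycin. On the log2 scale Mfn1 fell by 0.55 (SE 0.11, 95% interval -0.81 to -0.29, limma adjusted p = 0.00848). Ranked by p it stood at place 1268 of the 9986 rows, and 13.5% of rows had a log2 change at or below its own. The call held without any 1 library, with limma adjusted p between 0.0127 and 0.0347 and log2 changes between -0.59 and -0.50.

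Mfn2 (XLOC_014942, chromosome 4, 147873595 to 147904819) encodes mitofusin 2, which also tethers mitochondria to the endoplasmic reticulum. It had 16.6, 15.5 and 13 FPKM with oligomycin and 13.6, 15.7 and 15.1 FPKM with DMSO. The groups overlapped over nearly their whole range. The means were 15 ± 1.83 FPKM with oligomycin and 14.8 ± 1.08 FPKM with DMSO. The log2 change was 0.02, with a 95% interval of -0.27 to 0.31 (limma adjusted p = 0.933), so a change of up to about that size either way is not shown to be absent.

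Within each library, the ratio of Mfn1 to Mfn2 FPKM was 0.424, 0.397 and 0.528 with oligomycin and 0.778, 0.659 and 0.652 with DMSO. The groups did not overlap, and the means were 0.450 ± 0.0694 with oligomycin and 0.696 ± 0.0708 with DMSO. A ratio inside a library does not depend on the scaling between libraries. The difference of the mean ratios, -0.25, lay between -0.29 and -0.21 when any 1 library was left out. No test was run on the ratio, so an unequal change of the 2 genes is described here and not shown by a test.

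**Figure D2:**
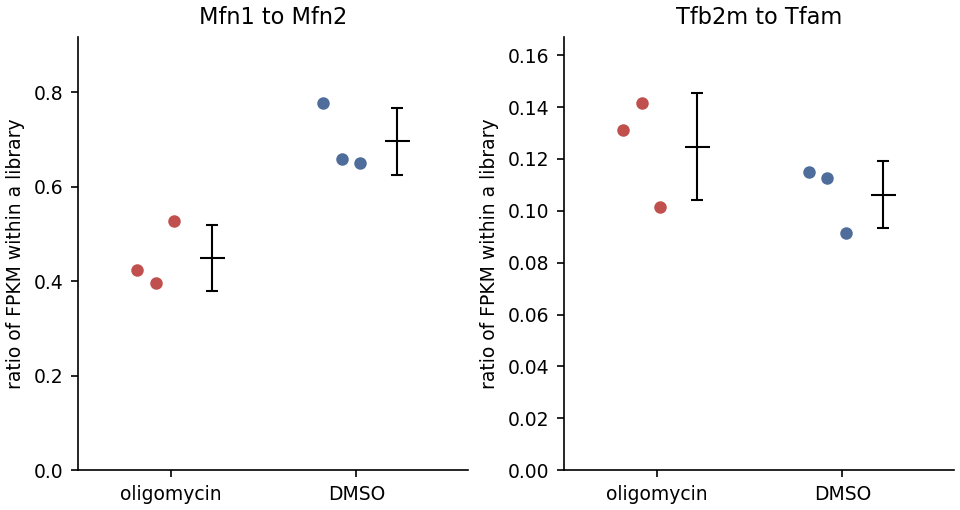
Ratio of FPKM within each library (vertical axes from 0) for Mfn1 to Mfn2 (left) and Tfb2m to Tfam (right), with oligomycin libraries in red, DMSO libraries in blue, and the mean ± SD of 3 libraries in black. The Mfn1 to Mfn2 ratio was 0.397 to 0.528 with oligomycin and 0.652 to 0.778 with DMSO; the Tfb2m to Tfam ratios of the groups overlapped.

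Opa1 (XLOC_007581, chromosome 16, 29579334 to 29654602), the inner-membrane fusion GTPase that also shapes cristae, had 19.8, 18.2 and 19.1 FPKM with oligomycin. In the DMSO libraries it had 21.4, 21.4 and 21.3 FPKM. All 3 oligomycin libraries were below all DMSO libraries, which were nearly identical to each other. The means were 19.1 ± 0.802 FPKM with oligomycin and 21.3 ± 0.0848 FPKM with DMSO, 10.8% lower with oligomycin. The log2 change of -0.16 (95% interval -0.39 to 0.07) was not called (limma adjusted p = 0.269).

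Both fission genes stayed without a call. Dnm1l (XLOC_007836, chromosome 16, 16312233 to 16359030), the gene of DRP1, had 20.7, 20.8 and 20.8 FPKM with oligomycin, against 24.8, 27 and 25.1 FPKM with DMSO. The groups did not overlap, and the oligomycin libraries lay within a narrow band. The means were 20.7 ± 0.0491 FPKM with oligomycin and 25.6 ± 1.19 FPKM with DMSO, 19.1% lower with oligomycin. The log2 change of -0.29 (SE 0.10, 95% interval -0.53 to -0.06) narrowly missed the threshold (limma adjusted p = 0.0592). In 16 alternative analyses the adjusted p of Dnm1l ran from 0.0522 to 0.195 and the log2 change from -0.31 to -0.18.

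Fis1 (XLOC_015584, chromosome 5, 136953275 to 136966234) encodes a small outer-membrane protein, long regarded as a receptor for DRP1 and dispensable for much of fission in mammals. It had 176, 171 and 159 FPKM with oligomycin and 146, 192 and 143 FPKM with DMSO. One DMSO library, replicate 2, stood above all others, and the groups overlapped. The means were 169 ± 8.31 FPKM with oligomycin and 160.2 ± 27.5 FPKM with DMSO (log2 change 0.09, 95% interval -0.24 to 0.41, limma adjusted p = 0.678). Without DMSO replicate 2 the log2 change was 0.22 (adjusted p = 0.288), and it was 0.31 under quantile normalization (adjusted p = 0.0907).

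None of the 3 genes of mitochondrial DNA transcription was called in limma, or had an unadjusted p under 0.05. Tfam (XLOC_002028, chromosome 10, 71225477 to 71238044) had 23.4, 19.3 and 25.6 FPKM with oligomycin and 25.9, 24.6 and 26.8 FPKM with DMSO. The groups overlapped, and oligomycin replicate 2 was the lowest of all. The means were 22.8 ± 3.2 FPKM with oligomycin and 25.8 ± 1.1 FPKM with DMSO (log2 change -0.18, 95% interval -0.47 to 0.11, limma adjusted p = 0.313). Without oligomycin replicate 2 the log2 change was -0.07 (adjusted p = 0.683).

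Tfb2m (XLOC_001211, chromosome 1, 179528056 to 179546267) was the lowest of the 9 genes. It had 3.07, 2.74 and 2.61 FPKM with oligomycin and 2.97, 2.77 and 2.46 FPKM with DMSO. Both groups spanned nearly the same range, and the log2 change was 0.03 (95% interval -0.30 to 0.36, limma adjusted p = 0.901). The ratio of Tfb2m to Tfam averaged 0.125 ± 0.0207 with oligomycin and 0.106 ± 0.0129 with DMSO, with overlapping libraries.

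Polrmt (XLOC_002086), the polymerase itself, had 8.82, 10.6 and 9.55 FPKM with oligomycin and 6.96, 8.61 and 8.51 FPKM with DMSO. Every oligomycin library was above every DMSO library, with a narrow gap between oligomycin replicate 1 and DMSO replicate 2. The means were 9.65 ± 0.878 FPKM with oligomycin and 8.03 ± 0.927 FPKM with DMSO, 20.2% higher with oligomycin. The log2 change of 0.24 (95% interval -0.06 to 0.54) was not called (limma adjusted p = 0.194). The locus printed for this row, chromosome 10 from 79697305 to 80369637, is shared with 26 other rows, while GENCODE M21 places the gene at 79736123 to 79746581. How reads were divided among genes of that locus is not given in the sources used here.

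Nrf1 (XLOC_016419, chromosome 6, 30047988 to 30153458) had 22.1, 26.9 and 22.2 FPKM with oligomycin and 26.7, 30.4 and 28 FPKM with DMSO. The groups overlapped only through oligomycin replicate 2, which lay just above the lowest DMSO library. The means were 23.7 ± 2.75 FPKM with oligomycin and 28.4 ± 1.88 FPKM with DMSO, 16.5% lower with oligomycin. The log2 change of -0.25 (95% interval -0.53 to 0.02) was not called (limma adjusted p = 0.146), and it was -0.34 without oligomycin replicate 2 (adjusted p = 0.0653).

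**Figure D3:**
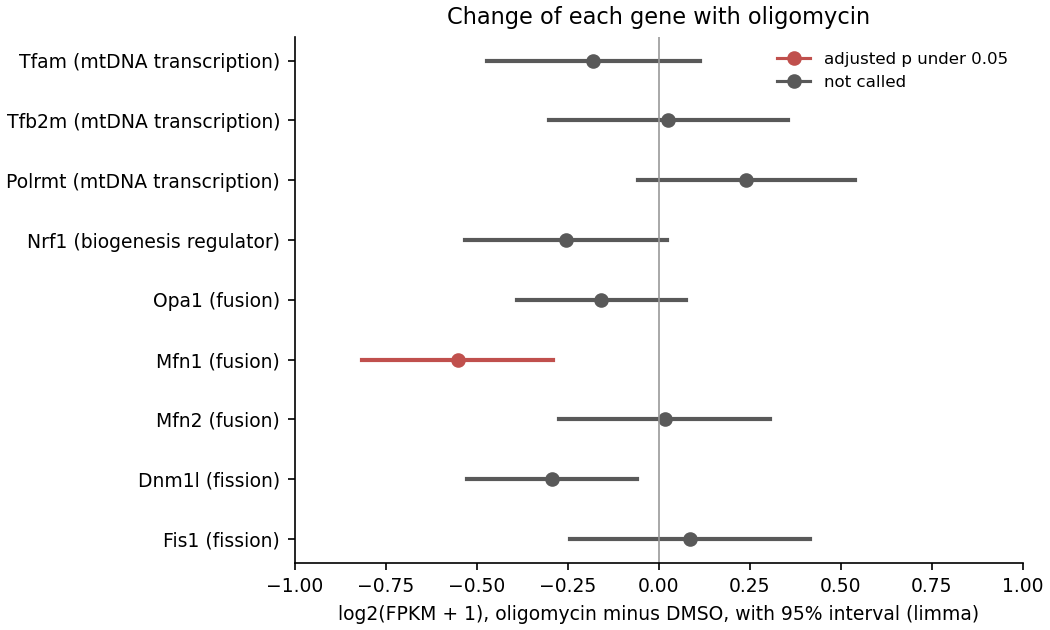
Change of each of the 9 genes in log2(FPKM + 1), oligomycin minus DMSO (horizontal axis), with its 95% interval from limma; red marks an adjusted p under 0.05, grey no call. Mfn1, at -0.55, is the one gene called; the interval of Dnm1l (-0.53 to -0.06) also lies below 0, but its adjusted p was 0.0592.

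FPKM are divided by transcript length, so levels can be set side by side. With oligomycin the order of the means, from high to low, was Fis1, Nrf1, Tfam, Dnm1l, Opa1, Mfn2, Polrmt, Mfn1 and Tfb2m. With DMSO it was the same but for Mfn1, which stood above Polrmt. Nrf1 and Tfam, and Tfam and Dnm1l, overlapped in both groups, while the other neighbours did not. Mfn1 and Polrmt did not overlap in either group: Mfn1 lay below Polrmt in all 3 oligomycin libraries and above it in all 3 DMSO libraries. The Polrmt row shares its locus with 26 other rows, so its level, and its place in this order, depends on how reads were divided there. Averaged over all libraries, Fis1 stood at percentile 95.7 of tested rows by level, Tfb2m at 9.81, and the others between 33.5 (Mfn1) and 67.7 (Nrf1).

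Other genes of mitochondrial biogenesis and dynamics were taken from 8 lists of genes outside the 10. Counting each gene once, 98 were tested, of which 9 fell, 8 rose and 81 were not called. These were 9.18% lower and 8.16% higher, against 16.1% and 14% of all tested rows, and the median log2 change was 0.01. The same shares of all tested rows are the background for the count of each list below. The 9 that fell include Optn, which passed the filter on low values only through its DMSO libraries; without it 97 were tested, of which 8 fell (8.25%) and 8 rose (8.25%), with a median of 0.02.

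**Figure D4:**
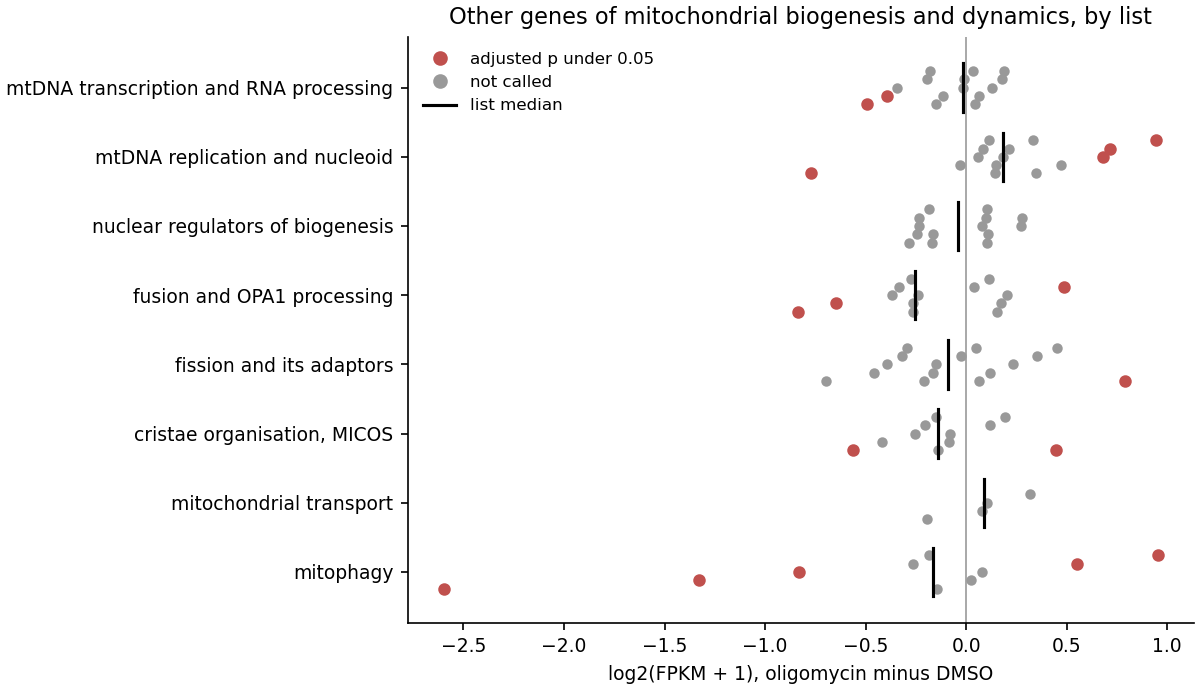
Change of each tested gene of the 8 lists in log2(FPKM + 1), oligomycin minus DMSO (horizontal axis), 1 point a gene and 1 row a list; red marks an adjusted p under 0.05, grey no call, and the black line the list's median. The vertical offset within a row only separates the points. Called genes lie on both sides of 0 in the lists of mtDNA replication, fusion, cristae and mitophagy, with Bnip3 at -2.60 farthest out.

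Among nuclear regulators of biogenesis, 0 of 14 tested genes were called in limma, and 1, Creb1, was higher at an unadjusted p under 0.05. The list's median was -0.04, but it was above 0 in 5 of the alternatives, at 0.09 without rows sharing a locus. Pprc1, a coactivator related to PGC-1, had 11.3 ± 1.75 FPKM with oligomycin and 9.14 ± 0.417 FPKM with DMSO (adjusted p = 0.160). Gabpa, the DNA-binding subunit of GABP, had 20.3 ± 1.8 FPKM with oligomycin and 24.1 ± 1.53 FPKM with DMSO (adjusted p = 0.157), and shares its locus with another row. The nuclear receptor gene Esrra, a partner of PGC-1 coactivators, also shares its locus and had 11.9 ± 1.36 FPKM with oligomycin and 14.3 ± 3.05 FPKM with DMSO (adjusted p = 0.294). With each library scaled to its sum without small RNA rows, 1 gene of the list, Creb1, was called higher.

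Among 15 tested genes of mitochondrial transcription and RNA processing, 2 fell and 0 rose in limma, with the same counts at an unadjusted p under 0.05. The median was -0.02, and it ran from -0.09 to 0.09 over the alternatives. Fastkd3, of a family that handles mitochondrial mRNA, fell by 0.49 (limma adjusted p = 0.0212), and Pnpt1, a mitochondrial RNA-degrading enzyme, fell by 0.39 (adjusted p = 0.0482). Pnpt1 lost its call in 10 of the alternatives, and Fastkd3 without oligomycin replicate 3 or DMSO replicate 2 or 3 (adjusted p = 0.0553, 0.0659 and 0.0816). Tfb1m, the paralog of Tfb2m that methylates ribosomal RNA, had 9.09 ± 1.38 FPKM with oligomycin and 9.31 ± 2.41 FPKM with DMSO (adjusted p = 0.970).

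Among 15 tested genes of mitochondrial DNA replication and the nucleoid, 3 rose, 1 fell and 11 were not called (median 0.18). Rrm2b, the p53-inducible small subunit of ribonucleotide reductase, had 8.85, 7.79 and 8.11 FPKM with oligomycin and 4.46, 3.05 and 4.01 FPKM with DMSO. Its groups lay far apart, and its mean was 2.15-fold higher with oligomycin (log2 change 0.94, limma adjusted p = 0.00244). Dguok, the mitochondrial deoxyguanosine kinase, had 19.3, 22.4 and 21.5 FPKM with oligomycin and 11.8, 14.5 and 12.1 FPKM with DMSO, 1.65-fold higher (adjusted p = 0.00485). Tk2, the mitochondrial thymidine kinase, rose by 0.72 (adjusted p = 0.0205), but its call was lost without DMSO replicate 1 or 3 (adjusted p = 0.0654 and 0.0745). Dna2, a nuclease-helicase that also serves nuclear DNA replication, fell by 0.77 (adjusted p = 0.0195). Its call was lost without DMSO replicate 1 or 3 (adjusted p = 0.0643 and 0.0776). The number called higher was 5 under the scaling to the sum without small RNA rows.

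Among 14 tested genes of fusion and OPA1 processing, 2 fell, 1 rose and 11 were not called (median -0.25). Bcl2l1, which encodes the survival protein BCL-XL, known also for its part in mitochondrial shape, had 49.2, 38.1 and 39.2 FPKM with oligomycin and 71.9, 76.1 and 79.1 FPKM with DMSO. It fell by 0.84 (limma adjusted p = 0.0023). Parl, a rhomboid protease of the inner membrane, fell by 0.65, with 17.1 ± 1.32 FPKM with oligomycin and 27.4 ± 2.64 FPKM with DMSO (adjusted p = 0.0053). Oma1, the stress-activated protease that cleaves OPA1, rose by 0.49. It had 15.7, 19 and 19.4 FPKM with oligomycin and 13.3, 10.9 and 13.6 FPKM with DMSO, groups that did not overlap (adjusted p = 0.0271). Without any 1 library other than oligomycin replicate 1, the call of Oma1 was lost (adjusted p between 0.0542 and 0.0916). The number called lower was 4 without oligomycin replicate 1.

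Among 16 tested genes of fission and its adaptors, 1 rose, 0 fell and 15 were not called in limma, and at an unadjusted p under 0.05 there were 3 higher and 3 lower. The median was -0.09, and it was 0.02 under the scaling to the sum without small RNA rows. Ppp3ca, a catalytic subunit of calcineurin, the phosphatase that activates DRP1, rose at a low level: it had 3.88, 6.09 and 4.15 FPKM with oligomycin and 2.66, 2.11 and 2.02 FPKM with DMSO (log2 change 0.79, limma adjusted p = 0.0131). Without DMSO replicate 3 its adjusted p was 0.0526. The number called higher was 2 in 6 of the alternatives, and the number called lower was 2 without oligomycin replicate 1. Mff, a main receptor of DRP1 on the outer membrane, had 45.4 ± 4.44 FPKM with oligomycin and 43.2 ± 1.26 FPKM with DMSO (adjusted p = 0.692).

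In the list of cristae organisation, 1 of 11 tested genes fell and 1 rose (median -0.14). Immt, the core subunit of the MICOS complex at cristae junctions, had 44, 36.7 and 37.7 FPKM with oligomycin and 55.7, 59.8 and 60.4 FPKM with DMSO. It fell by 0.56 (limma adjusted p = 0.00817), about as much as Mfn1. The gene 2410015M20Rik rose by 0.45 (adjusted p = 0.0472), a call that was lost without any 1 library other than DMSO replicate 2 (adjusted p between 0.0538 and 0.166) and without the intensity trend (adjusted p = 0.0539). The number called lower was 3 without oligomycin replicate 1. In mitochondrial transport, 0 of 4 tested genes were called in limma, and 0 passed at an unadjusted p under 0.05 (median 0.09).

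In the mitophagy list the changes ran in both directions: 3 of 10 tested genes fell (30%), 2 rose (20%) and 5 were not called (median -0.16). Of all tested rows 16.1% were called lower and 14% higher. Bnip3 and Bnip3l, receptors that mark mitochondria for removal and respond to hypoxia signalling, fell by 2.60 and 0.83 (limma adjusted p = 7.23e-05 and 0.00359). Optn, an autophagy receptor, had 0.415, 0.556 and 0.334 FPKM with oligomycin and 2.81, 2.81 and 2.22 FPKM with DMSO (log2 change -1.33, adjusted p = 0.001), a value that was -2.36 with a pseudocount of 0.1 and -0.49 with one of 5. Since it passed the filter only through its DMSO libraries it had to differ, and without it 2 of 9 mitophagy genes fell and 2 rose (median -0.14). Pink1, the kinase that labels damaged mitochondria, had 30.3, 48.4 and 39.7 FPKM with oligomycin and 19.7, 21.9 and 17.3 FPKM with DMSO, a mean 2.01-fold higher with oligomycin (adjusted p = 0.00503). Sqstm1, which encodes the autophagy adaptor p62, rose by 0.55 (adjusted p = 0.0195), but its call was lost without DMSO replicate 1 or 3 (adjusted p = 0.0757 and 0.0802).

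Facts of the whole series bear on these values as follows. T cell identity genes were present in every library (8 of 8 genes, summed level 1547 to 1926 FPKM with oligomycin and 1673 to 1878 FPKM with DMSO). The sum hides opposite shifts. Cd2 was lower in all oligomycin libraries (286 to 355 FPKM, against 457 to 530 FPKM with DMSO). Lat was higher in all of them (415 to 538 FPKM, against 283 to 384 FPKM), and the ranges of the other T cell identity genes overlapped. Of the Th17 markers 7 of 8 had a row, with a summed level of 333 to 535 FPKM with oligomycin and 1733 to 2013 FPKM with DMSO. Markers of other cells were found at low levels: Cd8b1 (1 of 2 CD8 T cell genes) at 2.41 to 3.3 FPKM with oligomycin and 2.63 to 3.12 FPKM with DMSO, Cd68 (1 of 7 monocyte and macrophage genes) at 2.39 to 5.07 FPKM with oligomycin and 1.08 to 2.07 FPKM with DMSO, and Nkg7 (1 of 4 NK cell genes) at 2.94 to 5.33 FPKM with oligomycin and 0.952 to 2.73 FPKM with DMSO. Cd68 and Nkg7 were thus higher in all oligomycin libraries than in all DMSO libraries, and their part in the results was not tested. No row carried exactly a symbol of the B cell, dendritic cell and red blood cell lists (6, 4 and 5 genes), so their levels were not analysed here. Across genes, libraries correlated at 0.940 to 0.962 within oligomycin and 0.963 to 0.969 within DMSO (Pearson, log2 scale), genes not being independent replicates.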

How the data were processed

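Expression was measured in 6 libraries. The authors deposited FPKM, 1 value a gene and library. The submitters' processing notes list Cuffdiff (2.2.1.3), Cuffnorm (2.2.1.1), Cufflinks (2.2.1.0), TopHat2 (2.1.0) and the build GRCm38 (mm10). The annotation, strand and between-library scaling were not given in those sources. No count model was used. Depth is unknown: among 1112 low rows, no ratio between 2 libraries (natural log, rounded to 3 decimals) recurred in more than 0.629% of rows, so whole reads could not be recovered, and no counting interval is given.

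Rows with at least 1 FPKM in at least 3 libraries (9986 of 10041) entered limma 3.58.1 under R 4.3.3 as log2(FPKM + 1) (intensity trend, group as the only term, 2-sided, Benjamini-Hochberg over all tested rows). The fit was also run on simulated data with few planted changes and independent noise. Those lacked the many changed rows and the small RNA difference of the real libraries, so no support is drawn from that run. Columns carry the numbers 1 to 3, which are in no sample title, so columns were mapped to groups only.

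The genes and lists were chosen with earlier results of these data known. Named from each list were the called genes with the 3 smallest adjusted p and Pprc1, Tfb1m, Mff, Oma1, Gabpa and Esrra; Tk2, Pink1, Sqstm1 and Creb1 were named after their values were seen. Locus starts are printed counted from 1.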

Additional observations from a re-analysis of the deposited data

How the results depend on the processing

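Across 16 alternatives (other pseudocounts, filters, scalings or variance models, a replicate block, rows sharing a locus left out, each library left out), 1 gene of the list was called lower and 0 higher each time, and the lower one was Mfn1 (log2 change -0.61 to -0.39, limma adjusted p 0.00739 to 0.0347). Tfb2m was not tested with a minimum of 5 FPKM, nor Polrmt with rows sharing a locus left out. Genes that were not called gained no call. The sign of Tfb2m reversed under quantile normalization (-0.0388) and without oligomycin replicate 1 or DMSO replicate 3, with 1 library left out giving -0.0282 to 0.0725. That of Mfn2 reversed without oligomycin replicate 1 or 2 or DMSO replicate 1, the range being -0.0537 to 0.110. The cause was not tested. The median of the 9 genes was -0.0499 with each library scaled to its sum without small RNA rows, where the median of all tested rows was 0.0994, against -0.00 in the deposited scaling, and it ran from -0.19 to -0.0714 when 1 library was left out. With 1 library left out, rows called higher numbered 780 to 1387 and rows called lower 989 to 1861, against 1403 and 1610 with all.

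Whether the column numbers pair the libraries was not settled. Deviations from the group means correlated at 0.0556, 0.247 and 0.132 between same-numbered libraries. Between differently numbered libraries the correlations were negative, down to -0.216, except that oligomycin replicate 1 correlated best with DMSO replicate 3 (0.117). A pairing by the numbers in the sample titles could not be fitted, since the columns do not carry them. With the replicate block by column number, 1668 rows were called higher and 1864 lower, and Mfn1 stayed called (limma adjusted p = 0.0118). Under the block, the genes called higher numbered 5 in the mitochondrial DNA replication list and 2 in the fission list, and the genes called lower numbered 1 in the fission list, 2 in the cristae list and 3 in the fusion list. With FPKM alone, the depth behind a value, and with it the counting error of low genes such as Tfb2m, is unknown.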
